A study of Mus musculus with 2 samples.

Results

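The genes described here are 10 components of cytokine signalling through Janus kinases and STAT factors: the feedback inhibitor genes Socs1, Socs2, Socs3 and Cish, the transcription factor genes Stat3, Stat5a and Stat5b, and the kinase genes Jak1, Jak2 and Jak3. They were taken by gene symbol from the annotation of the arrays. Of the 10, 9 had at least 1 probe of their own among the 22180 genes measured. Jak3 had none, because its probe is annotated to both Jak3 and Insl3, genes that overlap on chromosome 8 in the reference gene table.

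The data are 2 Affymetrix arrays of dorsal skin from female mice, aged 13 weeks at sampling, of NC/Nga, an inbred strain that readily develops dermatitis. Both groups entered the study at 6 weeks of age. In the ZAG group, dermatitis was induced with an ointment of Dermatophagoides farinae (house dust mite) body extract for 6 weeks and recombinant ZAG, a secreted lipid-mobilising glycoprotein, was applied to the skin for 6 weeks. The control group had the same mite-induced dermatitis without ZAG, so no group of healthy skin enters any value below. The design text gives 3 mice per group and 1 µg/mL of ZAG, whereas the table holds 1 column per group. Nothing in the labels says whether a column stands for a single mouse, a pool or a mean, or which vehicle, if any, the control mice received. With 1 array per group there is no replicate error, no test and no p-value, and every difference describes these 2 arrays.

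Cytokines bind receptors that lack an enzyme of their own, and the JAK kinases bound to those receptors then phosphorylate them and the STAT factors, which move to the nucleus and switch on genes. Among those genes are Socs1, Socs2, Socs3 and Cish, whose proteins bind the receptor or the kinase and damp the signal, so that their transcripts are commonly read as a trace of recent STAT activity. Most of the JAK and STAT genes themselves are transcribed in most cells without such a stimulus, although Stat3 is also a target of its own protein. In skin, STAT3 carries signals of the IL-6 and IL-20 families in keratinocytes, and JAK1 serves the receptors for IL-4, IL-13 and IL-31, which is why JAK inhibitors are used against atopic dermatitis.

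STAT dimers bind the palindrome TTCNNNGAA, and the start regions of Socs3 and Cish are shown because they were the ones among the members' RefSeq promoter windows (GRCm38.p6) that held it, while those of Socs1 and Stat3 are shown because these genes had the largest differences of their sets. Each window ran from 250 bases before to 50 bases after a transcript start, and a match on one strand is a match on both. The motif letters are in capitals. Socs3 (chr11:117969367-117969616, minus strand), Socs1 (chr16:10785537-10785786, minus strand) and Stat3 (chr11:100939541-100939790, minus strand) are given as the 250 bases before the start, and Cish (chr9:107296654-107296683, plus strand) as 30 bases around it.
Socs3: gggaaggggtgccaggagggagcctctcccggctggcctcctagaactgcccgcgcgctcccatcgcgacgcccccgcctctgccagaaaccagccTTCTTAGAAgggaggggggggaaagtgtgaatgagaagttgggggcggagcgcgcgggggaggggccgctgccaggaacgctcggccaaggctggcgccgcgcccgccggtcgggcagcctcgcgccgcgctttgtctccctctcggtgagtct
Cish: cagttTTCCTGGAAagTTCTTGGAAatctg
Socs1: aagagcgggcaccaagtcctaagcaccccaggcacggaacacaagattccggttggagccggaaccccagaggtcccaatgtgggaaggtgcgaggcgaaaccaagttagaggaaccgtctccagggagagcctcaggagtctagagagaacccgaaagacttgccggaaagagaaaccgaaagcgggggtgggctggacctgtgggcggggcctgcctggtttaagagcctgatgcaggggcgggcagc
Stat3: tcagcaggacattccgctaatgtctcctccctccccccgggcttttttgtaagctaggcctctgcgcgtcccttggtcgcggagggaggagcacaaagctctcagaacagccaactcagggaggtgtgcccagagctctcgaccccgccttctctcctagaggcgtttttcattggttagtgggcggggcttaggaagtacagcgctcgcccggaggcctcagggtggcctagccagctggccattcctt
Socs3 had TTCTTAGAA at -154 to -146, counted from the transcript start. Cish had TTCCTGGAA at 1 to 9 and TTCTTGGAA at 12 to 20. Of the 11 windows found for 9 member genes, these 2 held the motif, against 8.3% of all 32851 windows in the table, and 0.457% of all windows held 2 or more copies as Cish did. A match describes letters, not a bound site, and its absence from a window of 300 bases says nothing about STAT binding elsewhere. Socs2 was not among the windows.

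All 9 measured members read lower with ZAG than in the control. Their median log2 difference (ZAG minus control) was -0.41, beside a median of 0.01 over all genes, of which 47.9% were lower. All 9 lay above a background gauge of 3.16 on both arrays, the 95th percentile of the levels of 1390 olfactory and vomeronasal receptor genes. None of the 9 reached a 2-fold difference. The 11090 brighter genes, those with a mean level of no less than the median over all genes (3.87), serve as the comparison, and 7 of the 9 members were among them. A 2-fold lower value was seen in 1.15% of the brighter genes and a 2-fold higher one in 0.271%. At 1.5-fold (a log2 difference of 0.585) 1 member, Stat3, was lower and none was higher, against 5.08% lower and 2.48% higher among the brighter genes.

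**Figure D1:**
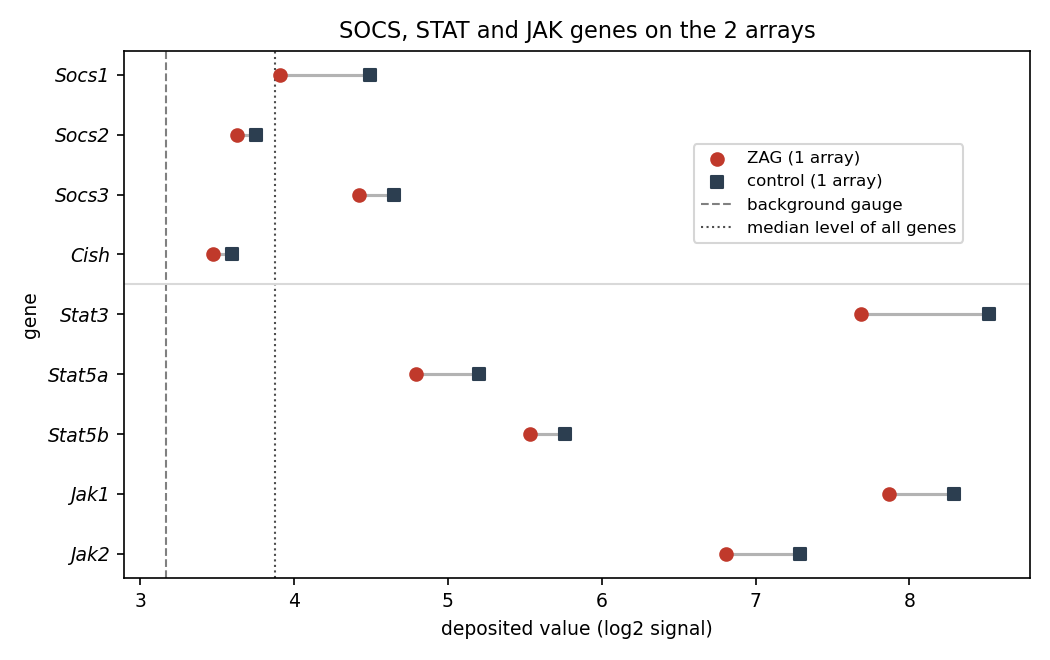
Deposited log2 values of the 9 measured members in the ZAG array (circles) and the control array (squares), with the background gauge of 3.16 (dashed) and the median level of all genes, 3.87 (dotted). Each gene's circle lies left of its square, with the widest gap for Stat3 (7.68 and 8.51), and all points lie above the gauge.

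Socs1, whose protein blocks JAK kinases directly and restrains interferon and IL-4 signalling, had a log2 value of 3.91 with ZAG and 4.49 in the control. The difference of -0.58 left 66.7% of the control signal and lay just short of the 1.5-fold line, and 5.09% of the brighter genes had a difference as low or lower. Socs3, whose protein docks on the IL-6 family receptor chain gp130 and inhibits the attached JAKs, averaged 4.42 with ZAG and 4.65 in the control over its 2 probes (-0.23). Socs2, a brake on growth hormone signalling, averaged 3.63 with ZAG and 3.75 in the control (-0.12). Cish, a STAT5 target that damps IL-2 and erythropoietin receptors, averaged 3.47 with ZAG and 3.60 in the control (-0.12). Socs1 was thus the one member of this set whose difference exceeded the probe SD, the SD between differences of probes for the same gene, which was 0.244 over 591 brighter genes with several probes. That SD is a scale for single probes, whereas the values of Socs2, Socs3 and Cish are averages of 2 probes. Socs2 and Cish were also not among the brighter genes, so the scale is a rough one for them.

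The averages of Socs2, Socs3 and Cish each joined a lower and a higher probe. For Socs3, probe 17272619 had 5.20 with ZAG and 5.73 in the control (-0.53), while probe 17547600 had 3.65 with ZAG and 3.57 in the control (0.08). For Cish, probe 17530881 had 3.53 with ZAG and 3.98 in the control (-0.45), while probe 17521300 had 3.42 with ZAG and 3.22 in the control (0.20). For Socs2, probe 17274184 had 3.96 with ZAG and 4.32 in the control (-0.37), while probe 17244486 had 3.30 with ZAG and 3.18 in the control (0.12). In all 3 genes the brighter probe was the lower one with ZAG and the dimmer probe was higher by less than the probe SD. On both arrays the dimmer probes lay above the gauge of 3.16 but below the median level of all genes (3.87). The brighter Cish probe was also below that median level with ZAG. Among the 968 genes with exactly 2 probes, 49.5% had the brighter probe lower than the dimmer, and 43.6% had probes of opposite sign. The gap between the probes' differences was 0.61 for Socs3, 0.65 for Cish and 0.49 for Socs2, against a median of 0.22 over those genes. A gap at least as wide was seen in 10.2% of them for Socs3, 8.57% for Cish and 19.1% for Socs2. Which exon each probe reads was not tested.

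**Figure D2:**
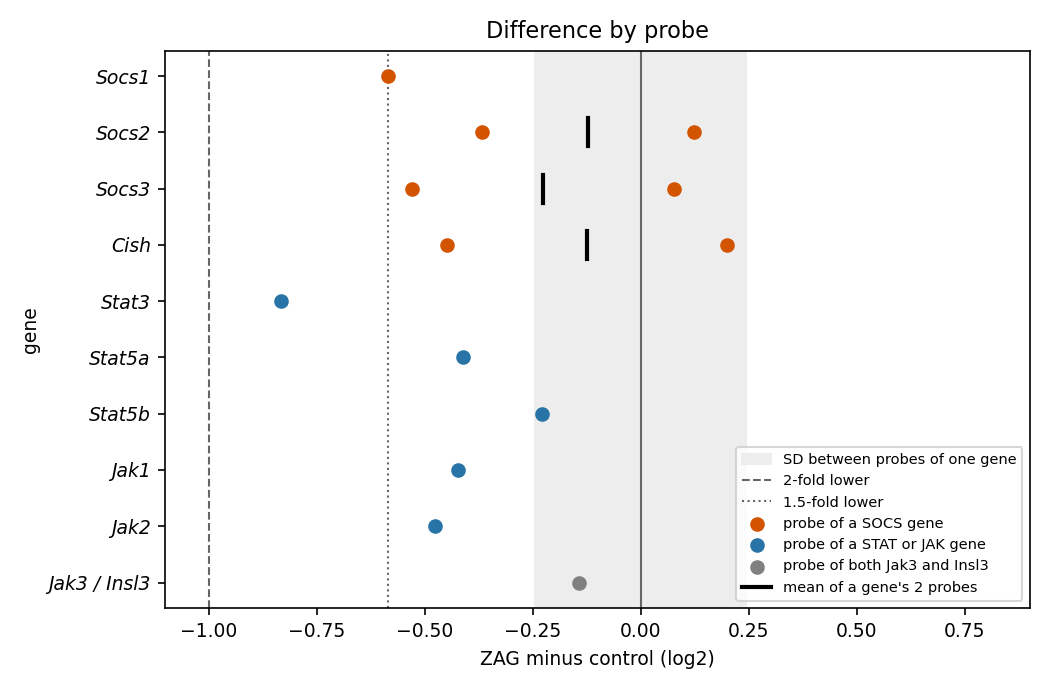
ZAG minus control (log2) for every probe of the members, with the mean as a black bar where a gene has 2 probes, and grey shading for the probe SD. The second probes of Socs2, Socs3 and Cish lie between 0.08 and 0.20 and their first probes between -0.53 and -0.37, among the STAT and JAK probes.

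Among the transcription factor and kinase genes, differences ran from -0.83 to -0.23. Stat3, which transmits signals of the IL-6, IL-10 and IL-20 families, had 7.68 with ZAG and 8.51 in the control. This was the largest difference among the members (-0.83, or 1.78-fold lower), and 1.88% of the brighter genes had a difference as low or lower. Stat5a, known from prolactin signalling, had 4.79 with ZAG and 5.20 in the control (-0.41). Stat5b, known from growth hormone and IL-2 signalling, had 5.53 with ZAG and 5.76 in the control (-0.23), which is within the probe SD. The proteins of Stat5a and Stat5b are close relatives and their genes lie side by side next to Stat3 on chromosome 11. Whether their probes tell the 2 transcripts apart was not tested.

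Jak1, the kinase shared by the gp130, type 2 cytokine and interferon receptors, had 7.87 with ZAG and 8.29 in the control (-0.42). Jak2, the kinase of the growth hormone, erythropoietin and IL-3 family receptors, had 6.81 with ZAG and 7.29 in the control (-0.48). Their differences had the same sign and nearly the same size, with 9.71% of the brighter genes as low as Jak1 or lower and 7.86% as low as Jak2 or lower. That share was larger for Stat5a (10.2%), Stat5b (21.4%), Socs3 (21.6%), Cish (31.9%) and Socs2 (32.2%). Jak1 overlaps Raver2 in the reference gene table, and whether its probe reads both was not tested. The probe annotated to both Jak3, the kinase partner of the common gamma chain in lymphocytes, and Insl3, a hormone gene of the testis, had 3.46 with ZAG and 3.60 in the control (-0.14), and no value is assigned to Jak3.

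**Figure D3:**
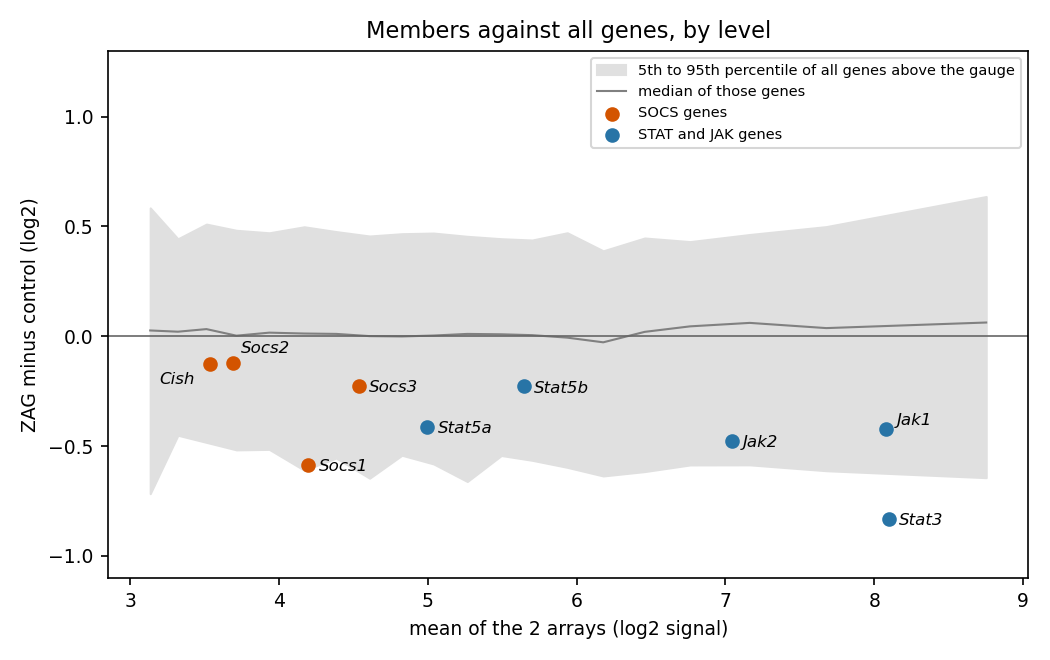
ZAG minus control (log2) of each measured member against its mean over the 2 arrays, with the 5th to 95th percentile (shading) and median (line) of all genes above the background gauge in 20 bins of level. All members lie below 0, and Stat3 (-0.83) lies lowest, under the shading.

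Set against each other, the 4 inducible feedback genes had a median log2 difference of -0.18 and the 5 measured STAT and JAK genes one of -0.42. The feedback median was thus 0.25 less negative, with no replicate spread to set this gap against. The ranges overlapped, since Socs1 (-0.58) lay below every STAT and JAK gene except Stat3, and Stat5b (-0.23) lay level with Socs3 (-0.23). The order of the sets rested on the averaging of probes: with the brightest probe per gene the feedback median was -0.49 and the gap turned to -0.067.

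The upstream genes, taken from lists of ligands and receptor chains, were mostly dim or lower. Of 33 ligand genes 32 were measured, and 21 of these were below the background gauge on both arrays. Below it lay Il6 (2.02 with ZAG and 3.15 in the control), the ligand best known for inducing Socs3, and Il4, Ifng, Il2, Il22 and Il31, so no fold is given for them. Of the 11 ligand genes above the gauge on at least 1 array, 7 were lower and 4 higher. Il19 and Il24, STAT3-activating cytokines of the IL-20 family, had 2.64 and 2.67 with ZAG and 5.28 and 4.72 in the control. Il19 was thus at least 4.33-fold and Il24 at least 2.94-fold lower. Il20, of the same family, was nearly level, at 3.71 with ZAG and 3.67 in the control (0.04). Clcf1, a gp130 ligand, had 3.98 with ZAG and 4.59 in the control (-0.60). Osm, the ligand of the oncostatin M receptor, was near the gauge, at 3.01 with ZAG and 3.24 in the control. On the higher side, Lep, the adipocyte hormone leptin that signals through JAK2, had 5.94 with ZAG and 5.69 in the control (0.25), and Il15 had 3.47 with ZAG and 3.25 in the control (0.22). For these folds and the 2-fold counts of lists that follow, the gauge is the floor. By that rule, of 14055 genes above it on at least 1 array, 0.961% were 2-fold lower or more and 0.242% were 2-fold higher or more. List medians and counts of lower and higher genes below have no floor. They include genes below the gauge on both arrays unless stated.

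Receptor chains were lower in 26 of 37 measured genes, with a median difference of -0.27, and 4 were at least 2-fold lower and none at least 2-fold higher. The gp130 family had a median of -0.46 over 8 genes, 7 of them lower. In it Csf3r, the receptor for the neutrophil growth factor G-CSF, had 4.01 with ZAG and 5.23 in the control (-1.22). Osmr, the chain for oncostatin M and IL-31, had 6.90 with ZAG and 8.02 in the control (-1.11), and Il6ra had 6.15 with ZAG and 6.85 in the control (-0.70). The shared signalling chain gp130, encoded by Il6st, had 8.63 with ZAG and 9.24 in the control (-0.61), whereas Il31ra was near the gauge at 3.26 with ZAG and 2.81 in the control. Receptors of this family are known to work mainly through JAK1, JAK2 and STAT3.

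The common gamma chain and type 2 receptor list was lower in 8 of 9 genes (median -0.30). Il4ra, the receptor chain that binds IL-4, had 6.37 with ZAG and 7.55 in the control (-1.18), and Il2ra, a STAT5 target, had 3.81 with ZAG and 4.33 in the control (-0.52). Il9r was the one higher gene, at 3.71 with ZAG and 3.04 in the control, at least 1.46-fold. The interferon, IL-10 and IL-12 family receptors had a median of -0.24 over 13 genes, 8 lower and none past 2-fold, from Il20ra (-0.55) to Il20rb (0.28) among those above the gauge. The beta common and homodimeric receptors, which work through JAK2 and STAT5, were mixed, with 3 of 7 lower and a median of 0.10. Of these, Csf2rb2, the IL-3 receptor beta chain, had 4.85 with ZAG and 5.93 in the control (-1.08), while the growth hormone receptor gene Ghr had 5.98 with ZAG and 5.46 in the control (0.51).

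**Figure D4:**
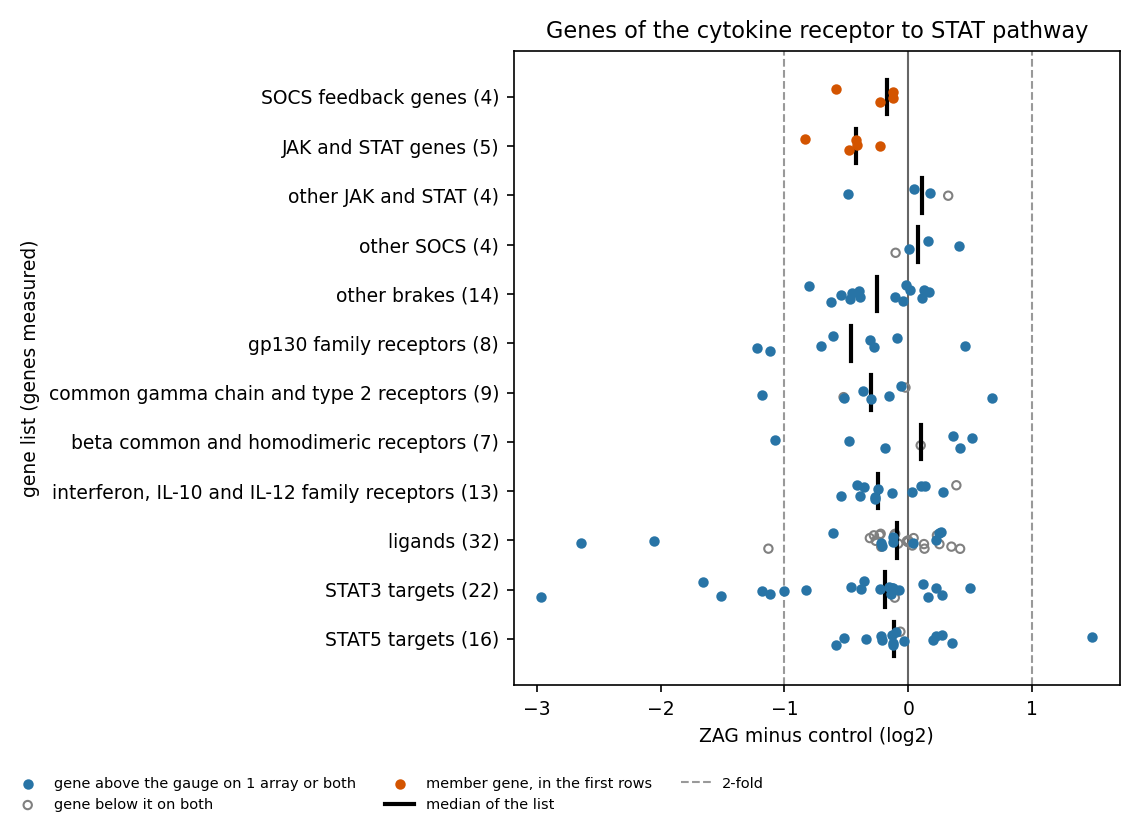
ZAG minus control (log2) of each measured gene in the pathway lists, with list medians as black bars, 2-fold as dashed lines and open circles for genes below the background gauge on both arrays. The medians run from -0.46 (gp130 family receptors) to 0.11 (other JAK and STAT genes), and the STAT3 target list has the widest tail to the left.

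The other genes of the JAK, STAT and SOCS families were mostly not lower. Of 4 other JAK and STAT genes measured, Stat6, the factor of IL-4 and IL-13, was lower (7.04 with ZAG and 7.52 in the control, -0.48). Stat2, the interferon factor, had 5.42 with ZAG and 5.24 in the control (0.18), Tyk2, the remaining JAK kinase, had 5.29 with ZAG and 5.25 in the control (0.04), and Stat4 was below the gauge on both arrays. Of the SOCS genes known less for cytokine feedback, Socs4 had 5.71 with ZAG and 5.30 in the control (0.41), Socs7 had 4.01 with ZAG and 3.85 in the control (0.16), Socs5 had 4.95 in both (0.00), and Socs6 was below the gauge on both. Lower values were thus seen in all 9 measured members and in 2 of these 8 relatives, Stat6 and the dim Socs6, against 47.9% of all genes. The count for the members rests on averaged probes, since Socs2, Socs3 and Cish each also had a higher probe.

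Other brakes on the pathway, a list of phosphatases, PIAS proteins, ubiquitin ligase parts and adaptors, were lower in 10 of 14 genes (median -0.25), none past 2-fold. Usp18, an interferon-induced brake on the type I interferon receptor, had 3.87 with ZAG and 4.67 in the control (-0.80). The phosphatase gene Ptpn1 had 5.28 with ZAG and 5.91 in the control (-0.62), and Sh2b3, an adaptor that restrains JAK2, had 4.42 with ZAG and 4.96 in the control (-0.55). On the higher side were Rnf7 (0.16), which encodes a RING protein of ubiquitin ligases, the phosphatase gene Ptpn2 (0.13) and Cul5 (0.11), the cullin that SOCS proteins recruit.

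Downstream, the list of STAT3 targets held 17 lower genes of 22, with a median of -0.19, and 6 were 2-fold lower or more, while none was 2-fold higher. The acute-phase gene Saa3 had 6.03 with ZAG and 8.99 in the control (-2.96), the protease inhibitor gene Timp1 had 5.23 with ZAG and 6.88 in the control (-1.66), and Fos had 4.04 with ZAG and 5.55 in the control (-1.51). Lcn2, the gene of the iron-binding protein lipocalin, had 5.75 with ZAG and 6.76 in the control (-1.01). Bcl3, a nuclear NF-kB cofactor, had 5.09 with ZAG and 5.91 in the control (-0.83). Of the other targets, the kinase genes Pim3 (0.50) and Pim1 (0.28) and the survival gene Bcl2l1 (0.22) were higher with ZAG. The list shares Osmr and Il4ra with the receptor lists, and Fos and Junb with the immediate early genes given below. It also shares Pim1, Bcl2l1 and Ccnd1 with the STAT5 targets. Osmr, Il4ra and Fos, all at least 2-fold lower, are thus counted in another list as well. Socs3 is a member, and without it the median of the STAT3 targets was -0.15, with 16 of 21 lower. Many of its genes also answer to NF-kB or AP-1.

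The STAT5 target list, which holds Cish, Socs2 and Socs1, had a median of -0.11 over 16 genes, 11 lower. Without those 3 members the median was -0.064, with 8 of 13 lower. Apart from those 3, the lowest was Il2ra (-0.52) and the next Bcl6 (-0.35), the gene of a transcriptional repressor that STAT5 is known to switch off. Csn2, a milk casein gene under STAT5 in the mammary gland, was the one gene of the list past 2-fold, with 6.11 with ZAG and 4.63 in the control (1.49). Csn1s1, another casein gene, had 4.64 with ZAG and 4.29 in the control (0.36), and the milk gene Wap was below the gauge on both.

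The arrays also differed in markers of cell types found in skin. In bulk skin, fewer cells of a type and less RNA per cell cannot be told apart. Which cells carry the members' transcripts was not tested. Keratin genes of the epidermis were bright on both arrays, with Krt10 at 12.16 with ZAG and 12.15 in the control. Basal keratinocyte markers were lower in 6 of 7 genes (median -0.48), and their summed linear signal was 2461 with ZAG and 3503 in the control. Krt14 (10.62 with ZAG and 11.35 in the control) weighed most in that sum, and Krt15 was the 1 higher gene (0.66). Macrophage markers were lower in 9 of 10 genes (median -0.61, summed signal 832 with ZAG and 1320 in the control). Neutrophil markers were lower in 6 of 9 (median -1.22, sum 515 with ZAG and 1380 in the control). The other genes of the list, Ly6g, Ngp and Camp, lay below the gauge on both arrays. Which cells made the 6 lower transcripts was not tested. The brightest of that list weighed most in its sum. They were S100a8 (7.84 with ZAG and 9.23 in the control) and S100a9 (7.39 with ZAG and 8.88 in the control). Fibroblast markers were lower in 6 of 7 (median -0.46, sum 6896 with ZAG and 8552 in the control) and endothelial markers in 6 of 7 (median -0.37, sum 324 with ZAG and 475 in the control). Mast cell markers were lower in 8 of 8 (median -0.64, sum 870 with ZAG and 1382 in the control). Markers of leukocytes in general were lower in 7 of 8 (median -0.29, sum 452 with ZAG and 640 in the control).

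Hair follicle markers were higher in 10 of 10 (median 0.58, sum 13496 with ZAG and 9245 in the control), adipocyte markers in 7 of 7 (median 0.43, sum 3233 with ZAG and 2256 in the control) and skeletal muscle markers in 6 of 9 (median 0.32, sum 2057 with ZAG and 1474 in the control). The muscle list was split, from Myh4 (8.54 with ZAG and 6.95 in the control, 1.59) to Myh2 (4.42 with ZAG and 6.11 in the control, -1.69). Differentiated keratinocyte markers differed less (median -0.13, 4 of 7 lower, sum 11468 with ZAG and 11999 in the control). T cell markers had a median of 0.17 over 5 genes, 2 of them lower (sum 105 with ZAG and 83.4 in the control), and all 3 measured B cell markers were below the gauge (sum 18.2 with ZAG and 18.7 in the control). Immediate early genes, which answer to tissue handling as well as to cytokines, were lower in 10 of 13 (median -0.35, sum 908 with ZAG and 1275 in the control). The part of cell content or handling in the members' differences was not tested.

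**Figure D5:**
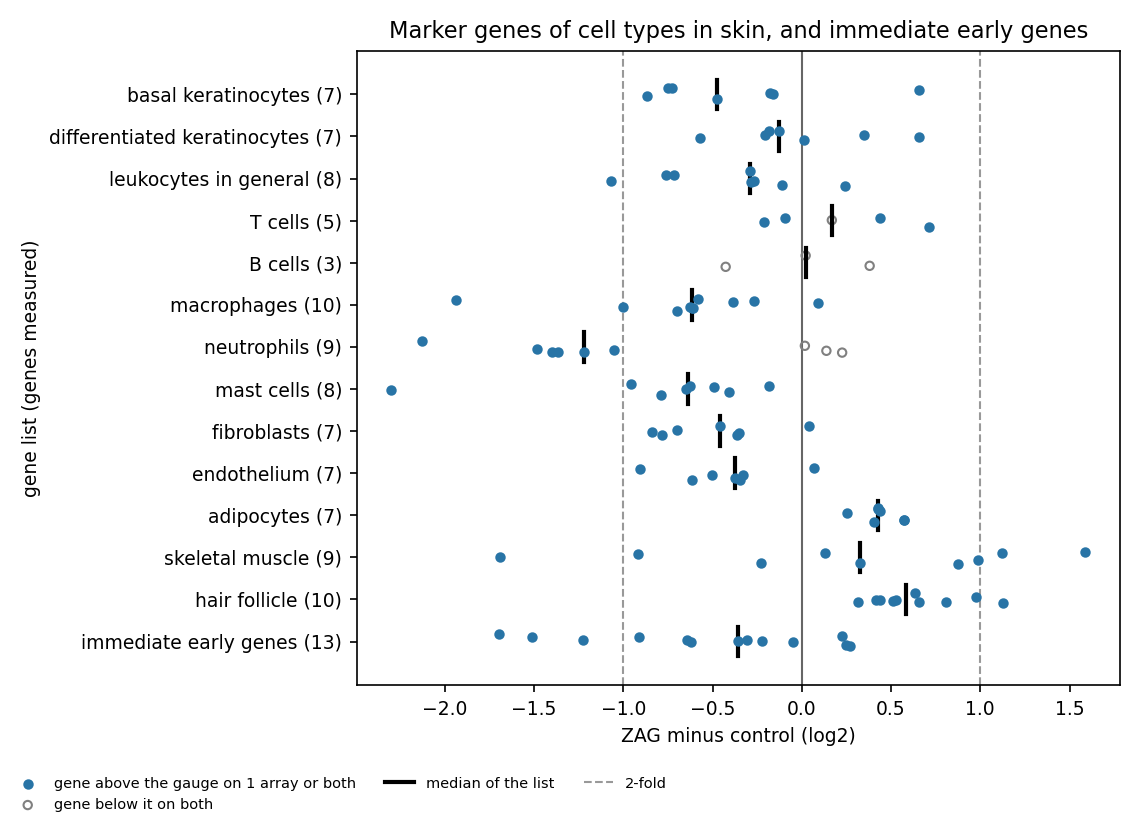
ZAG minus control (log2) of marker genes of skin cell types and of immediate early genes, with list medians as black bars, 2-fold as dashed lines and open circles for genes below the background gauge on both arrays. Neutrophil, mast cell, macrophage, basal keratinocyte and fibroblast medians lie between -1.22 and -0.46, and adipocyte and hair follicle markers all lie above 0.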

How the data were processed

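Skin RNA was labelled as sense cDNA with biotin and hybridised to Affymetrix arrays, per the labels' protocols and the design text. The authors deposited log2 values, a scale read from their range of 0.866 to 13.2 in the ZAG column and 0.889 to 12.8 in the control column. Background correction, normalization and software are not given in the sources. The column medians were 3.36 (ZAG) and 3.33 (control), and the number of arrays limits the precision.

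Of 33793 probes, 23521 had 1 gene symbol in the platform annotation, 1814 several and 8458 none. Single-symbol probes were averaged per gene, and each gene's control value was subtracted from its ZAG value without rescaling. The brighter genes, from the 50th percentile of mean level up, formed the background for counts. Where 1 array was below the gauge, the gauge replaced its value and the fold is a lower bound; where both were, no fold is given. Promoter windows are from RefSeq. One gene and one list of target genes are not reported here.

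The members and gene lists were chosen with earlier results of these data known. All members are named, and of each list up to 3 of the lowest and 3 of the highest genes above the gauge. The others named are dim genes, Il20, Il6st, Lcn2 and Bcl3. These, and the choice among those the rule gives, were settled after their values were seen. Alternatives were median centring, quantile normalization, loess (span 0.3), the brightest probe per gene, probes with several symbols, other level filters and thresholds, list means, and each member left out. The dimmest probe per gene was added after the data were seen. The difference as deposited and its rescalings were tested on simulated data with known shifts. The counts, the gauge, the averaging of probes and the motif search were not tested in that way. Software was Python 3.11.15 with matplotlib 3.10.9, statsmodels 0.14.6, pandas 2.3.3 and numpy 2.4.6.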

Additional observations from a re-analysis of the deposited data

How the results depend on the processing

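Median centring, quantile normalization and loess kept all 9 members lower and none past 2-fold, with Stat3 between -0.88 and -0.86, Socs1 between -0.61 and -0.59 and the feedback genes 0.25 to 0.28 less negative than the STAT and JAK genes. Socs1 passed the 1.5-fold line under all 3 of these, though not as deposited. With the brightest probe per gene, Socs2 was at -0.37, Socs3 at -0.53, Cish at -0.45, their set median at -0.49 and the gap between the sets at -0.067. With the dimmest probe per gene, chosen after seeing the data, these were 0.12, 0.076, 0.20, 0.10 and 0.52. The STAT and JAK median stayed between -0.47 and -0.42 under all 12 alternatives run on it. Over all genes, 46 were at least 2-fold higher without a filter on level and 62 at least 2-fold lower at or above the 75th percentile, and at 1.5-fold 275 were higher and 563 lower, against 30 higher and 128 lower as reported. With the gauge at the 99th percentile of the receptor genes (4.10), Socs2 and Cish were below it on both arrays and Socs1 in the ZAG array. No paired analysis was possible because each group has 1 array.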

Other observations

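Over all measured genes with a promoter window and a level above the gauge on at least 1 array, the motif TTCNNNGAA went with no visible shift between the arrays. The median log2 difference was 0.02 over 10103 genes without the motif, 0.01 over 835 genes with 1 copy and 0.04 over 50 genes with 2 or more. Differences were below 0 in 47.3%, 49.2% and 42% of these genes, in the same order. The middle 50 percent of differences ran from -0.18 to 0.20 without the motif and from -0.20 to 0.19 with 1 copy.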
